A study of Xenopus laevis with 35 samples.

Results

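The forebrain transcription regulators dlx2.L, dlx5.L and lmo3.S were followed in the brain of Xenopus laevis tadpoles. They are 3 of the 243 genes named on the array. They were taken by their annotation, with earlier results of these data known. Each is measured by 1 probe printed as 2 neighbouring spots, and the array's own symbols for them are Dlx2, Dlx5 and XLMO1. The last of these is matched to lmo3.S through its gene identifier. The endings L and S mark the copies of a gene on the long and short chromosomes of this species, which carries a doubled genome. A probe may also bind the other copy, and whether these probes tell the copies apart is not given in the sources used here.

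The animals were tadpoles of NF stage 54, when metamorphosis is beginning. Control tadpoles received no chemical. The others were exposed without a break to MMI (100 mg/L), to PTU (20 mg/L) or to PER (4 mg/L), and brains were sampled after 24, 48 or 96 h. The short forms are those of the labels, and the full names are taken from background knowledge: methimazole (MMI) and propylthiouracil (PTU) block thyroid peroxidase, while perchlorate (PER) blocks the uptake of iodide by the thyroid. No strain is named. Each compound was used at 1 concentration, the concentrations differ, and the labels say that in earlier work they enlarged the thyroid and delayed metamorphosis at times later than those sampled here. The 12 groups of treatment and time hold 3 arrays each except PER at 24 h, which holds 2. For every treatment and time 10 tadpoles were taken from a pair of tanks, and their RNA went into 3 separate pools, so each array stands for a pool of whole brains. The p-values below measure the spread between such pools, and animals of 1 treatment and time shared tanks.

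Dlx genes encode homeobox transcription factors. In vertebrates they mark the ventral forebrain, where dlx1 and dlx2 act first and dlx5 and dlx6 follow in cells that become inhibitory, GABA-releasing neurons of the basal ganglia and interneurons of the pallium and olfactory bulb. LMO3 is a LIM-only protein: it binds no DNA itself and joins DNA-binding factors into complexes, and in mammals it is found in forebrain neurons. Thyroid hormone drives amphibian metamorphosis, including the remodelling of the brain. The comparisons ask whether exposure to these compounds for up to 96 h went with a change in the level of these regulators.

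Values are scaled intensities, that is, background-subtracted radioactive signals averaged over both spots and scaled to a common level on each array. Above background means more than 2 background SDs of the array in question. By that rule dlx2.L was above background on 11 of 35 arrays, dlx5.L on 18 of 34 and lmo3.S on 32 of 35. Control arrays were the noisiest, with a median background SD of 1051 units against 614 with MMI, 582 with PTU and 349 with PER. The mean correlation of an array with the others of its group, taken over brighter probes, was between 0.407 and 0.784 on control arrays, lowest at 96 h (0.407 to 0.552), and between 0.764 and 0.950 on exposed arrays. Over all probes, the values of PER 24 h replicate 1 were almost those of PER 48 h replicate 3 (Spearman correlation 0.9996, against at most 0.718 for any other pair of arrays), so the 8 PER arrays count as 7 distinct ones. Which label that array belongs to cannot be told from the files, and the PER changes of the 3 genes averaged over the times are also given without both. PER at 24 h then holds replicate 2 alone.

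Averaged over the 3 times, dlx2.L was called lower with PTU and with PER. Of 11 other processing settings, 3 kept the PTU call and 6 the PER call, and either spot alone lost both. Leaving out both near-identical PER arrays also lost both calls. The control mean was 2320 ± 997 (SD, n = 9), and the means were 841 ± 561 with PTU (SD, n = 9), 631 ± 433 with PER (SD, n = 8) and 1003 ± 879 with MMI (SD, n = 9). The decrease with MMI did not pass the test.

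Control arrays read 2753, 1125 and 1467 for dlx2.L at 24 h, 1791, 1994 and 4401 at 48 h, and 1735, 2998 and 2616 at 96 h. None was below 0, and 5 of 9 were above background. With MMI the values were 455, -884 and 1154 at 24 h, 849, 1146 and 2411 at 48 h, and 1334, 1262 and 1299 at 96 h. Only 2 of the 9 MMI arrays were above background, and 1 array of 24 h read below the background subtracted by the authors. With PTU dlx2.L read 1808, 579 and 1077 at 24 h, 364, 169 and 484 at 48 h, and 1161, 458 and 1472 at 96 h. The 48 h group had the lowest mean of the PTU groups, with 0 of 3 arrays above background, against 1 of 3 at 24 h and at 96 h. With PER it read 406 and 299 at 24 h, 191, 687 and 406 at 48 h, and 733, 753 and 1570 at 96 h, with the arrays of 96 h above those of the earlier times.

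**Figure D1:**
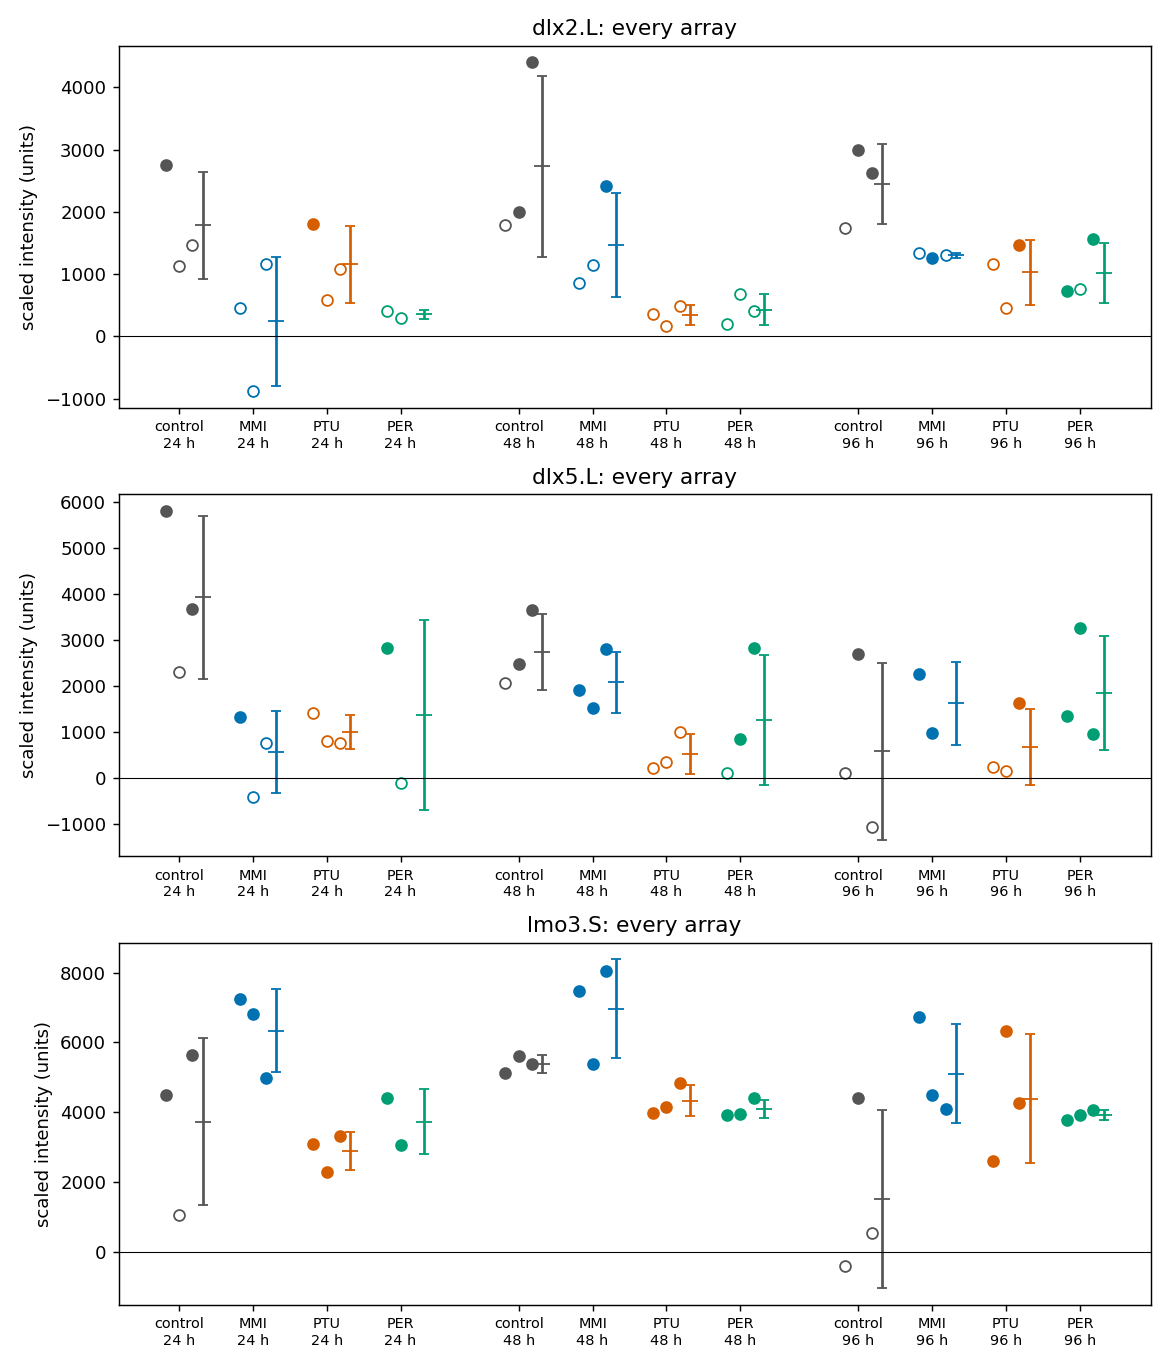
Scaled intensity of dlx2.L, dlx5.L and lmo3.S on each array, by treatment and time. Filled points are above background on their array, open points are not, and bars give the group mean ± SD. For dlx2.L the 9 control arrays lie between 1125 and 4401 and the 8 PER arrays between 191 and 1570, while lmo3.S with MMI lies between 4101 and 8056.

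In limma's fit across all probes, dlx2.L changed by -1.94 on the log2 scale with PER averaged over the times (SE 0.46, adjusted p = 0.0154), and it was below the mean control of its time on 8 of 8 arrays. That SE, adjusted p and count take the 7 distinct PER arrays as 8. With PTU the change was -1.56 (SE 0.44, adjusted p = 0.0404), with 8 of 9 arrays lower. Among all probes, 0.907% were called lower with PER and 2.51% with PTU. With MMI dlx2.L changed by -1.34 (SE 0.44, 95% confidence interval -2.25 to -0.43, adjusted p = 0.158), and it was lower on 9 of 9 arrays. In that comparison 0.452% of the probes were called lower. The 3 comparisons share their 9 control arrays, so their like direction is not independent. In brain RNA as a whole, fewer cells with a transcript and less of it per cell cannot be told apart.

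By time, the fitted dlx2.L change was below 0 in 9 of 9 comparisons as reported. It turned above 0 on 1 spot alone with MMI at 48 h (0.67) and 96 h (0.071) and PTU at 96 h (0.051), and under other scalings with PTU at 24 h (0.38 and 0.24). It passed limma's adjusted test in 0 of 9, with 4 of 9 at an unadjusted p under 0.05. Among all probes, 0.676%, 0% and 4.74% were called with MMI at 24, 48 and 96 h, 1.58%, 0% and 1.14% with PTU, and 0%, 0% and 1.36% with PER. At an unadjusted p under 0.05 it was 53 of 444, 22 of 444 and 61 of 443 probes with MMI. With PTU it was 64 of 443, 33 of 442 and 50 of 440, and with PER 38 of 442, 26 of 445 and 48 of 442. The exposed arrays lay wholly below the controls of their time in 6 of 9. These were MMI at 96 h, where 3.62% of all probes did the same, PTU at 48 h (12.1%) and 96 h (5.28%), and PER at 24 h (14%), 48 h (6.37%) and 96 h (8.45%). In the other comparisons, MMI at 24 h (11.5%) and 48 h (7.11%) and PTU at 24 h (10.9%), the dlx2.L arrays overlapped the controls. Where no exposed array was above background only a bound on the fold can be given. It was taken from the control mean, formed on the log2 scale, over the lowest detectable signal. It is rough, since the control mean takes in arrays below background. It also carries no sampling error, so the true fold can be smaller than the bound. By this bound the mean of dlx2.L was at least 3.95-fold lower with PER at 48 h (means 428 and 2729, adjusted p = 0.404). With PTU at 48 h it was at least 2.56-fold lower (means 339 and 2729, adjusted p = 0.186). The same ratio was 2.51 with PER at 24 h (means 353 and 1781, adjusted p = 0.513) and 1.29 with MMI at 24 h (means 241 and 1781, adjusted p = 0.347). Only 1 of 3 control arrays was above background at 24 h, so neither of these ratios is a minimum fold.

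The control arrays had both the highest dlx2.L signal and the highest background SD. Expressed as multiples of each array's own background SD, dlx2.L had a median of 2.26 on control arrays, 1.41 with MMI, 1.35 with PTU and 1.45 with PER. In an exact permutation test within times (two-sided, 9 such tests over members and compounds, not adjusted), the difference in scaled intensity was -1720 with PER (p = 5e-04), -1479 with PTU (p = 0.002) and -1317 with MMI (p = 0.00425). On the background SD scale, chosen after the data were seen, the same exact test gave differences of -0.72 (p = 0.198), -1.12 (p = 0.0533) and -0.82 (p = 0.167), in the same order of compounds; the direction was the same and none of the 3 passed 0.05. Without both near-identical arrays the dlx2.L difference with PER was -1734 in scaled intensity (p = 0.00625 in the same exact test, 6 PER arrays) and -0.73 in background SDs (p = 0.286). The part that background noise plays in the scaled difference was not tested.

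The paired spots of dlx2.L also agreed poorly. Their rank correlation over 35 arrays was 0.230, against 0.693 for dlx5.L and 0.726 for lmo3.S. On control 48 h replicate 3, the highest dlx2.L array, the deposited spots were 9133 and -15, and on control 96 h replicate 2 they were 79 and 6055. With the first spot alone the dlx2.L change with PER was -1.74 (adjusted p = 0.320) and with the second alone it was -1.34 (adjusted p = 0.448). With PTU these were -1.05 (adjusted p = 0.470) and -1.70 (adjusted p = 0.238). Averaged over the times, the direction with PTU and PER held on either spot and the calls did not.

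**Figure D2:**
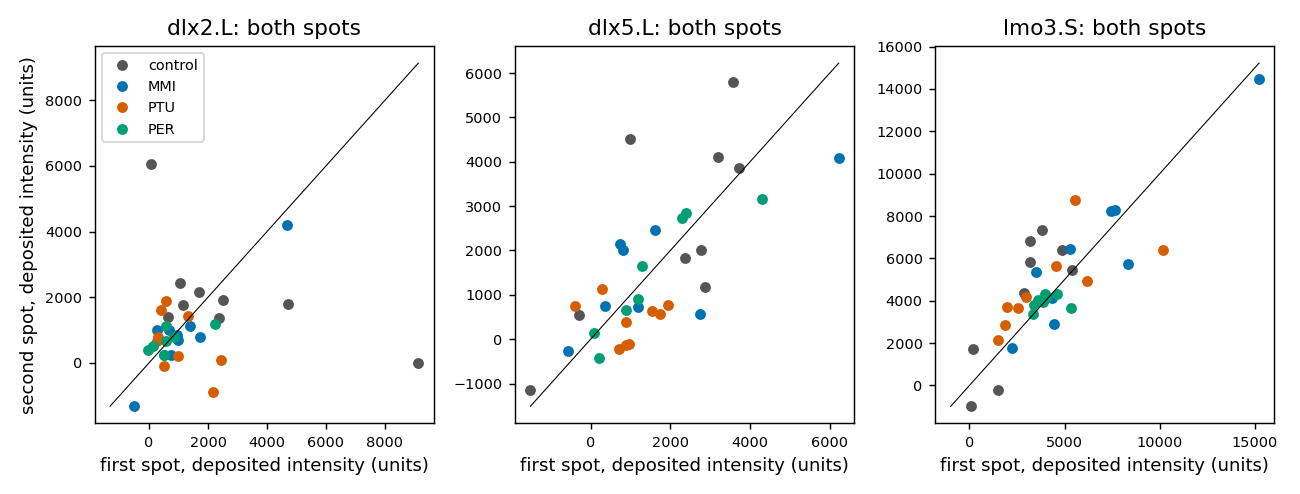
Deposited intensity of the second spot against the first spot of each probe, 1 point per array, coloured by treatment, with the line of equality. The points of dlx2.L scatter widely (rank correlation 0.230) and those of dlx5.L (0.693) and lmo3.S (0.726) lie nearer the line.

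The calls for dlx2.L moved with single arrays. The PER call was kept in 14 of 17 fits that left out 1 array. It was lost without PER 24 h replicate 1 (adjusted p = 0.0508), PER 24 h replicate 2 (-1.88, adjusted p = 0.0704) or PER 48 h replicate 1 (-1.81, adjusted p = 0.0517). Without both near-identical arrays the dlx2.L change with PER was -2.01 (adjusted p = 0.0798). The PTU call was kept in 8 of 18 such fits. It was lost without replicate 1 or 3 of the controls at 24 h, replicate 3 at 48 h or replicate 2 at 96 h. It was also lost without replicates 2 or 3 of PTU at 24 h, replicates 1 or 2 at 48 h and replicates 1 or 2 at 96 h, each left out alone, with dlx2.L changes between -1.61 and -1.41 and adjusted p between 0.0547 and 0.0963. With MMI the dlx2.L change passed the test in 1 of 18, without MMI 24 h replicate 3 (-1.64, adjusted p = 0.0487).

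dlx5.L, which acts later than dlx2, passed limma's adjusted test with no compound over the times and in 0 of 9 comparisons by time. Of those 9, 2 had an unadjusted p under 0.05, beside the counts over all probes given above for each compound and time. Control arrays read 5799, 2294 and 3659 at 24 h, 2070, 2478 and 3656 at 48 h, and 111, 2689 and -1072 at 96 h. The controls of 96 h thus had a lower mean (576 ± 1923, SD, n = 3) than those of 24 h (3918 ± 1767, SD, n = 3). With MMI dlx5.L read 1330, -413 and 751 at 24 h and 1914, 1514 and 2800 at 48 h. At 96 h it read 2260 and 976, and the cell of replicate 3 is empty. The MMI arrays lay wholly below the controls at 24 h and overlapped them at 48 and 96 h.

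With PTU dlx5.L read 1418, 798 and 759 at 24 h, 212, 341 and 1006 at 48 h, and 233, 143 and 1622 at 96 h. Only 1 of 9 was above background, and the arrays lay below all controls at 24 h and 48 h. With PER it read 2819 and -104 at 24 h, 111, 837 and 2819 at 48 h, and 1335, 3262 and 957 at 96 h. The repeated 2819 comes from the near-identical arrays. The groups of PER overlapped the controls at each time.

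Averaged over the times, dlx5.L changed by -1.25 with PTU (SE 0.76, 95% confidence interval -2.81 to 0.30, adjusted p = 0.430), from a control mean of 2409 ± 2007 (SD, n = 9) to 726 ± 543 (SD, n = 9). With PER the change was -0.83 (interval -2.45 to 0.79, adjusted p = 0.692) and the mean 1505 ± 1301 (SD, n = 8). Without both near-identical arrays the change with PER was -2.05. That fit rests at 24 h on PER replicate 2 alone, which read -104 and was set to 0. With MMI the change of dlx5.L was -0.41 (interval -2.04 to 1.21, adjusted p = 0.879) and the mean 1392 ± 991 (SD, n = 8). These intervals span no change and also decreases as large as those of dlx2.L. The exact permutation test, which ran on scaled intensities, gave p = 0.018 for dlx5.L with PTU (difference -1684), 0.305 with PER (difference -921) and 0.223 with MMI (difference -993). In multiples of the background SD the exact test gave dlx5.L differences of -1.30 with PTU (p = 0.0888), 1.74 with PER (p = 0.264) and -0.050 with MMI (p = 0.954), so the direction with PER turned. When both near-identical arrays were left out, the dlx5.L difference with PER was -1669 in scaled intensity (exact permutation p = 0.151) and -0.41 in background SDs (p = 0.771).

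By time, dlx5.L had its lowest values relative to controls at 24 and 48 h. With MMI at 24 h it changed by -3.13 (SE 1.31, adjusted p = 0.373), and 11.5% of all probes lay wholly below controls there. With PTU it was at least 2.51-fold lower at 24 h (means 992 and 3918, adjusted p = 0.566) and at least 2.71-fold lower at 48 h (means 520 and 2734, adjusted p = 0.636). No PTU array was above background at those times, and 10.9% and 12.1% of all probes lay wholly below controls. At 96 h the fitted changes of dlx5.L were above 0, by 2.28 with MMI (adjusted p = 0.479), 0.56 with PTU (adjusted p = 0.917) and 2.39 with PER (adjusted p = 0.493). The control mean was 576 at that time, against 3918 at 24 h.

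lmo3.S, the LIM-only cofactor, was called higher with MMI at 96 h, a call kept in 2 of 6 fits with 1 array left out. Control arrays read 4482, 1041 and 5638 at 24 h, 5117, 5621 and 5386 at 48 h, and -421, 4407 and 524 at 96 h. The controls of 48 h were close to each other, and those of 96 h held 1 array near the earlier level and 2 below background. With MMI lmo3.S read 7237, 6810 and 4971 at 24 h, 7473, 5370 and 8056 at 48 h, and 6717, 4492 and 4101 at 96 h. All 9 MMI arrays were above background, and 8 of 9 were above the mean control of their time.

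With PTU lmo3.S read 3088, 2279 and 3300 at 24 h, 3986, 4157 and 4847 at 48 h, and 2600, 6317 and 4248 at 96 h. With PER it read 4392 and 3061 at 24 h, 3922, 3951 and 4392 at 48 h, and 3771, 3927 and 4067 at 96 h. These 8 PER arrays were the most even, with a mean of 3935 ± 418 (SD, n = 8). At 48 h the PTU and the PER arrays lay wholly below the controls, as did 12.1% and 6.37% of all probes, and the fitted changes of lmo3.S there were small, at -0.31 (adjusted p = 0.949) and -0.39 (adjusted p = 0.969).

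At 96 h lmo3.S changed by 3.16 on the log2 scale with MMI (SE 0.85, adjusted p = 0.0273), from a control mean of 1503 ± 2559 (SD, n = 3) to 5103 ± 1411 (SD, n = 3). limma's SE takes its spread from all 12 groups, not from the groups compared alone. At 96 h the SD of lmo3.S in scaled intensity ran from 148 with PER to 2559 in the controls. In that comparison 3.84% of all probes were called higher. The groups overlapped, since control replicate 2 read 4407, above the 4101 of MMI replicate 3. With PTU the change at 96 h was 2.89 (SE 0.85, adjusted p = 0.109) and with PER it was 2.82 (SE 0.85, adjusted p = 0.148). Those 3 comparisons share the same control arrays. The median change at 96 h of the 67 brighter probes, those above background on at least 18 arrays with no empty cell, was 0.95 with MMI. It was 0.31 with PTU and 0.54 with PER. Over all probes the median was 0.15, -0.007 and -0.23 with MMI, PTU and PER. The part of a shift shared by brighter probes in the lmo3.S changes was not tested. Between 24 and 96 h the lmo3.S level changed by -0.32 on MMI arrays (adjusted p = 0.923, with 0.226% of all probes called) and by -2.44 on control arrays.

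Without control 96 h replicate 1 the lmo3.S change with MMI at 96 h was 1.63 (adjusted p = 0.243). Without control 96 h replicate 2 it was 4.66 (adjusted p = 9.96e-05), and the changes with PTU and PER then passed the test too, at 4.39 (adjusted p = 0.000341) and 4.32 (adjusted p = 0.00030). The call was also lost without MMI 96 h replicate 1 (2.95, adjusted p = 0.111), replicate 2 (3.24, adjusted p = 0.0670) or replicate 3 (3.30, adjusted p = 0.0694).

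Averaged over the times, lmo3.S changed by 1.52 with MMI (SE 0.49, 95% confidence interval 0.51 to 2.53, adjusted p = 0.150), with a control mean of 3533 ± 2431 (SD, n = 9) and an MMI mean of 6136 ± 1426 (SD, n = 9). Without control 96 h replicate 2 it was 2.02 (adjusted p = 0.00767). With PTU the lmo3.S change was 0.84 (interval -0.17 to 1.85, adjusted p = 0.419) and with PER 0.91 (interval -0.14 to 1.96, adjusted p = 0.428), and without the same array PTU passed the test (1.34, adjusted p = 0.0457). Without both near-identical arrays the lmo3.S change with PER was 0.80 (adjusted p = 0.693). In scaled intensity the differences were 2603 with MMI (exact permutation p = 0.00525), 336 with PTU (p = 0.700) and 379 with PER (p = 0.659). In multiples of the background SD the same exact test gave lmo3.S differences of 6.05 with MMI (p = 0.004), 3.52 with PTU (p = 0.0583) and 7.95 with PER (p = 0.00075), the compound with the lowest background SD. Without both near-identical arrays the lmo3.S difference with PER was 107 in scaled intensity (exact permutation p = 0.925) and 7.65 in background SDs (p = 0.0025).

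**Figure D3:**
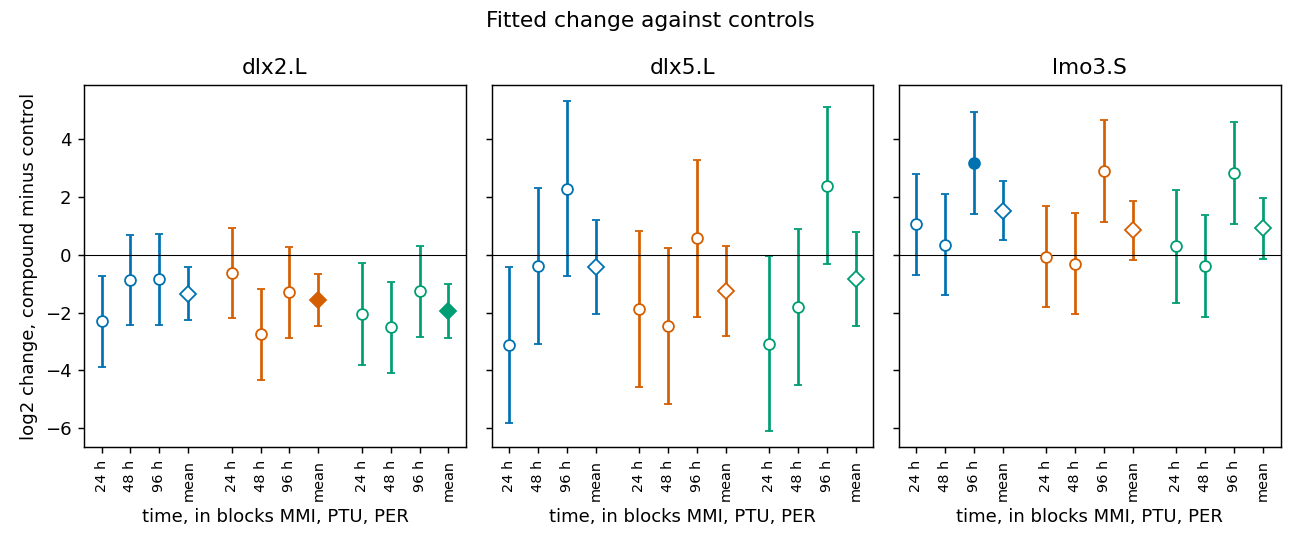
Fitted log2 change of dlx2.L, dlx5.L and lmo3.S against the control of the same time, at 24, 48 and 96 h and as the mean over the times (diamonds), for each compound. Bars are 95% confidence intervals, and filled symbols have an adjusted p under 0.05 in limma's fit over all probes. The filled symbols are dlx2.L with PTU (-1.56) and PER (-1.94) over the times and lmo3.S with MMI at 96 h (3.16). Fits of groups with no array above background depend on the offset.

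In the control groups, the dlx5.L level changed by -3.53 between 24 h and 96 h (SE 1.31, adjusted p = 0.128) and the lmo3.S level by -2.44 (SE 0.85, adjusted p = 0.111). dlx2.L changed by 0.51 (SE 0.76, adjusted p = 0.784). None of the 3 passed limma's adjusted test, 2 of 3 had an unadjusted p under 0.05, and 4.72% of all probes were called lower at 96 h. At an unadjusted p under 0.05 it was 80 of 445 of all probes. The median change of the 67 brighter probes was -1.12, beside -0.20 over all probes. Without control 96 h replicate 2 the change of dlx5.L was -5.08 (adjusted p = 0.0251) and that of lmo3.S was -3.94 (adjusted p = 0.00119), and without control 24 h replicate 2 that of lmo3.S was -3.18 (adjusted p = 0.0424). crx.L, the retina marker here and also among the 12 other regulators described below, moved with dlx5.L and lmo3.S. Its control mean was 3971 at 24 h and -56 at 96 h, with 2 of 3 and 0 of 3 arrays above background (adjusted p = 0.0197). The 96 h control arrays were those with the lowest correlation within their group. The part of either in these changes was not tested.

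Whether an effect differed between 96 h and 24 h was tested as an interaction. In limma's fit 0 of 9 passed after adjustment and 3 of 9 had an unadjusted p under 0.05. Of all probes, 2.94%, 0.457% and 0.227% were called with MMI, PTU and PER. At an unadjusted p under 0.05 it was 76 of 442, 53 of 438 and 42 of 441 of all probes. In the same order, the median difference of the 67 brighter probes was 1.60, 0.49 and 1.15. Over all probes it was 0.62, 0.35 and 0.11. For dlx5.L the difference was 5.40 with MMI (SE 1.97, adjusted p = 0.138), 5.46 with PER (SE 1.97, adjusted p = 0.354) and 2.43 with PTU (SE 1.86, adjusted p = 0.655). These dlx5.L differences rest in part on arrays set to 0: control 96 h replicate 3 (-1072), MMI 24 h replicate 2 (-413) and PER 24 h replicate 2 (-104). In other settings they ran from 2.80 to 5.57 with MMI and from 2.59 to 8.17 with PER. With 1 array left out they ran from 4.08 to 6.95 and from 2.76 to 8.17. For lmo3.S the difference was 2.12 with MMI (adjusted p = 0.388), 2.96 with PTU (adjusted p = 0.279) and 2.54 with PER (adjusted p = 0.511). For dlx2.L it was 1.45, -0.67 and 0.79 with MMI, PTU and PER, with adjusted p of 0.589 or more. Without control 96 h replicate 2, dlx5.L with MMI passed (6.95, adjusted p = 0.0405), as did lmo3.S with MMI (3.61, adjusted p = 0.0405), PTU (4.46, adjusted p = 0.0111) and PER (4.03, adjusted p = 0.0485).

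Set in order over the 12 groups, dlx2.L had its 3 control groups at the top, from 2729 at 48 h through 2450 at 96 h to 1781 at 24 h. MMI at 48 h (1468) and 96 h (1298), PTU at 24 h (1155) and 96 h (1030) and PER at 96 h (1019) came next. Then followed PER at 48 h (428) and 24 h (353), PTU at 48 h (339) and MMI at 24 h (241). Of the 11 steps between neighbours, 1 exceeded the larger SD of its pair, that from PER at 96 h to PER at 48 h.

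dlx5.L was highest in the controls of 24 h (3918) and 48 h (2734), followed by MMI at 48 h (2076), PER at 96 h (1851), MMI at 96 h (1618), PER at 24 h (1357) and PER at 48 h (1256). Below these came PTU at 24 h (992) and 96 h (666), the controls of 96 h (576), MMI at 24 h (556) and PTU at 48 h (520). For this gene 0 of 11 neighbouring steps exceeded the SD.

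lmo3.S was highest with MMI at 48 h (6966) and 24 h (6339), followed by the controls of 48 h (5375) and MMI at 96 h (5103). PTU at 96 h (4388) and 48 h (4330), PER at 48 h (4088), 96 h (3922) and 24 h (3726) and the controls of 24 h (3720) lay close together. PTU at 24 h (2889) and the controls of 96 h (1503) were lowest, and again 0 of 11 steps exceeded the SD. The 3 genes thus had different orders: over the 12 group means the rank correlation was 0.545 between dlx2.L and dlx5.L, -0.168 between dlx2.L and lmo3.S and 0.203 between dlx5.L and lmo3.S. All groups share the scaling and 2 of them share an array, so these are descriptions.

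Among the 36 named probes above background on at least 18 arrays, those whose 12 group means ran most like dlx2.L were id2.L (rank correlation 0.930), rpl35a.S (0.804) and ldhb.S (0.650), against a median of 0.115 over the 36. All 3 were also the leading ones by Pearson correlation over arrays. For dlx5.L they were npy.S (0.825), katna1.S (0.678) and npr3.L (0.678), of which 2 of 3 led over arrays too. The exception was katna1.S, whose correlation with dlx5.L over arrays was -0.18. For lmo3.S they were coro1c.L (0.748), psma2.L (0.601) and btg1.S (0.531), and 0 of 3 led over arrays, where gap43.S, pkm.S and npy.S did.

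Of the other regulators of neural development on the array, 12 genes besides the 3 were measured. Among them were dlx3.S, another Dlx gene, crx.L, and neurod1.L and neurog2.L, which drive neuronal differentiation. Others were nkx2-2.S, a ventral patterning factor, and zic2.L, a dorsal one. With each compound averaged over the times, 1 of 12 was called lower and 0 higher, the same gene each time, while 0.452%, 2.51% and 0.907% of all probes were called lower and 0.226%, 1.83% and 0.68% higher with MMI, PTU and PER. It was id2.L, an inhibitor of basic helix-loop-helix factors. Its control mean was 5584 ± 1449 (SD, n = 9). The mean of id2.L was 2638 ± 1655 with MMI (SD, n = 9, log2 change -1.31, adjusted p = 0.0469), 2028 ± 704 with PTU (SD, n = 9, -1.47, adjusted p = 0.00527) and 2300 ± 1229 with PER (SD, n = 8, -1.48, adjusted p = 0.0127). Without both near-identical arrays id2.L passed with PTU (adjusted p = 0.00729) and not with MMI (adjusted p = 0.0554) or PER (-1.42, adjusted p = 0.0798). Scaling on all probes and quantile normalization each ended all 3 calls of id2.L, with changes of -0.64 and -1.10 with MMI, -0.79 and -0.97 with PTU and -0.82 and -0.92 with PER. Of the fits with 1 array left out, 3 of 18 kept the id2.L call with MMI and 18 of 18 that with PTU. With PER 16 of 17 kept it, and the exception was PER 24 h replicate 1. The median change of the 12 was -0.24, 0.08 and -0.10 with MMI, PTU and PER, beside -0.08, -0.18 and -0.17 over all probes. Of all 15 regulators, dlx2.L, dlx5.L and lmo3.S included, 3 were above background on 18 or more arrays, so most of these changes are of dim probes.

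Genes near the Dlx and LMO3 pathway were few. Of 5 genes of the signals upstream of Dlx genes (BMP, FGF and retinoic acid: aldh1a1.S, fgf3.L, fgfr1.L, rara.L and smad1.S), 0 passed the test over the times with any compound in limma's fit, and their median change was -0.69, -0.82 and -0.92 with MMI, PTU and PER. At an unadjusted p under 0.05 it was again 0 of 5 with each, where 51 of 442, 69 of 438 and 58 of 441 of all probes passed. Of these 5 genes, 0 were above background on 18 or more arrays, so the lack of calls cannot show that they did not change. Of 2 genes of inhibitory and peptide neurons, calb1.L (calbindin, a calcium-binding protein) and npy.S (neuropeptide Y), npy.S was called higher at 96 h with MMI and PER, where 3.84% and 1.13% of all probes were called higher, and was not called with PTU (adjusted p = 0.168). Its mean was 3626 with MMI (adjusted p = 0.00684) and 3083 with PER (adjusted p = 0.0187) against -244 in the controls, where none of the 3 arrays was above background. The npy.S call with MMI was lost without control 96 h replicate 1, and that with PER was kept in 1 of 6 fits with 1 array left out, the one without control 96 h replicate 2. In the controls npy.S was lower at 96 h than at 24 h, when its mean was 4201 (adjusted p = 0.00398). The other gene, calb1.L, was not called at 96 h. Its fitted change then was below 0 with MMI and PER and above 0 with PTU. Of 5 listed genes of the thyroid hormone axis and response (crhbp.S, klf9.L, rxrb.L, thibz.L and trh.S), 0 were called over the times with any compound. Of all probes, 3 of 442, 19 of 438 and 7 of 441 were called with MMI, PTU and PER. The median change of the 5 was 0.21, -0.21 and -0.42 in the same order. Of these 5 too, 0 were above background on 18 or more arrays, so their lack of calls over the times cannot show that they did not change. With MMI at 96 h, 3 of 5 had a fitted change above 0. crhbp.S was called higher there, with 1 of 3 MMI arrays and 0 of 3 controls above background (adjusted p = 0.0203), beside 3.84% of all probes called higher. This crhbp.S call was kept in 2 of 6 fits with 1 array left out, those without control 96 h replicate 3 or MMI 96 h replicate 1.

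The tissue label was checked on 3 brain markers, gap43.S (a growth cone protein), mbp.S (myelin) and msi1.S (a neural progenitor RNA-binding protein), each above background on at least 18 arrays. Their summed signal was 6111 to 28647 on control arrays and 17934 to 54526 on exposed ones, and 1 of 3, msi1.S, was called higher with each compound over the times, as were 0.226%, 1.83% and 0.68% of all probes with MMI, PTU and PER. Of the fits with 1 array left out, 5 of 16 kept the msi1.S call with MMI, 16 of 16 that with PTU and 14 of 15 that with PER. Each msi1.S call was lost on the first spot alone, with only the compound and control arrays, and with array weights. With both near-identical arrays left out, msi1.S passed with PTU (2.56, adjusted p = 0.0310) and not with MMI (2.62, adjusted p = 0.0554) or PER (2.84, adjusted p = 0.0798). The markers of other tissues on the array were 1 each of pituitary (gh1.S), red blood cells (hbd.S), muscle (myf5.L), liver, pancreas and gut (fabp2.L) and retina (crx.L), and of these gh1.S alone was above background on 18 or more arrays. In the comparisons over the times in which they could be fitted, 0 of 5 was called with MMI or PTU and 0 of 4 with PER in limma's fit, and none had an unadjusted p under 0.05. By time 0 of 42 tests of these markers were called and 6 of 42 had an unadjusted p under 0.05, beside the counts over all probes given above. With MMI at 96 h, where lmo3.S was called, the mean of hbd.S was 2757 against 970 in the controls (adjusted p = 0.335). With MMI and PTU at 24 h that of crx.L was 532 and 314 against 3971 (adjusted p = 0.347 and 0.0910). The others were hbd.S with PTU at 48 h (312 against 898) and fabp2.L with PTU at 96 h (1253 against -368) and PER at 24 h (-313 against 1125). For immune cells and epidermis 0 genes were on the array. The part of cell makeup in the changes of the 3 genes was not tested.

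**Figure D4:**
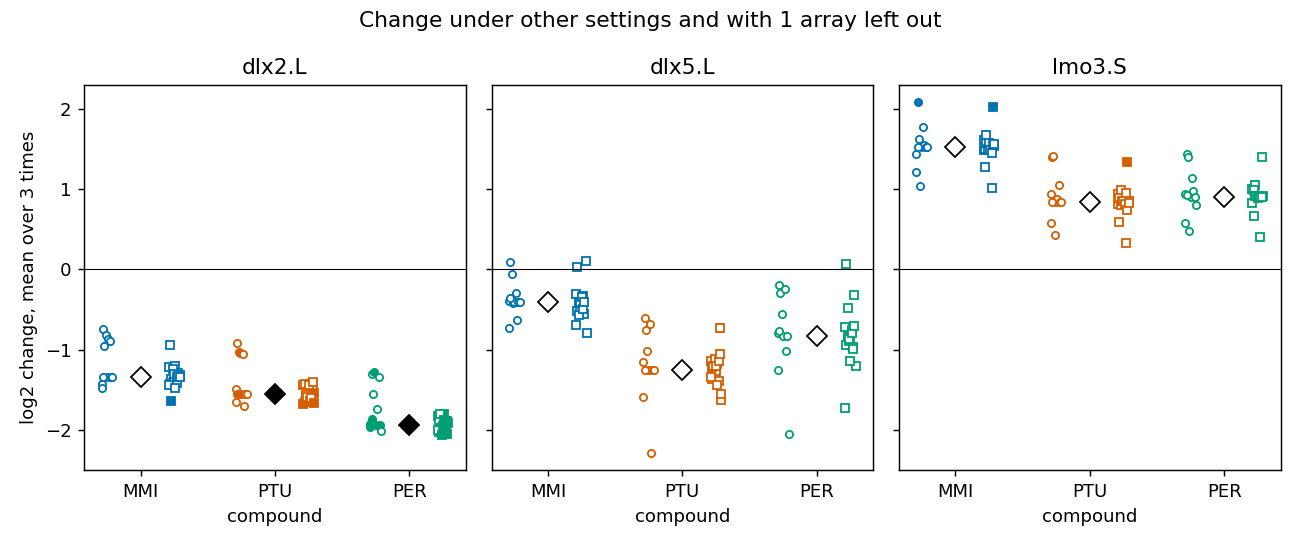
Log2 change of each gene with each compound averaged over the times, as reported (black diamonds), with other processing settings (circles) and with 1 array left out (squares), filled where the adjusted p was under 0.05. The changes of dlx2.L were all below 0, and 3 of 11 other settings kept its call with PTU and 6 of 11 with PER, while dlx5.L was near 0 with MMI in some settings.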

How the data were processed

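The deposited table holds linear intensity values as whole numbers. Its 898 rows are 2 neighbouring spots of each of 449 probes, and 677 cells are empty. RNA was amplified and hybridised as 32P-labelled cDNA, per the labels' protocols. On each array 17.3% to 44.5% of filled cells were at or below 0. Scanner, background method and scaling: not given in the sources used here.

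Spots were averaged, and where 1 was empty the other was used. An array's background SD is the root of the mean squared negative probe value. Arrays were scaled on the median of the 18 probes above background on all arrays. Values below 0 were set to 0, an offset of 67.7 was added and log2 taken, so fitted changes of dim probes depend on the offset. limma 3.58.1 in R 4.3.3 fitted all 35 arrays in 12 groups, with 1 spread per probe shared by all groups. Benjamini-Hochberg adjustment ran over all probes, with calls under 0.05. The fit was tried on simulated normal log2 values with 1 spread per probe for all arrays. That run had no values set to 0 and no noisier control arrays, so it cannot tell how the fit behaves with these. Adjusted p-values quoted are limma's. Where no array of a group was above background, a bound on the means, without sampling error, replaces the fold. Genes were named as members of the 3, as the 3 most similar patterns, or as called members of the lists. The members and lists were chosen with earlier results of these data known. Same-numbered replicates did not deviate together (26 pairs, correlations -0.408 to 0.287, 6 over 0.1), so no block was used. Python 3.11.15 with matplotlib 3.10.9 drew the figures.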

Additional observations from a re-analysis of the deposited data

How the results depend on the processing

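Calls were made at an adjusted p under 0.05 in limma, and the values below are log2 changes over the 3 times unless a time is named. For dlx2.L with PTU the call was lost with the values as deposited (-1.49), scaling on all probes (-0.92), quantile normalization (-1.04), the first spot (-1.05) or second spot alone (-1.70), only PTU and control arrays (-1.56, adjusted p = 0.0602), without both near-identical arrays (-1.56, adjusted p = 0.0546) and array weights (-1.66). For dlx2.L with PER it was lost with scaling on all probes (-1.31), quantile normalization (-1.55), the first (-1.74) or second spot alone (-1.34) and without both near-identical arrays (-2.01). lmo3.S with MMI passed with scaling on all probes (2.08, adjusted p = 0.0421). Scaling on all probes moved the median change of all probes to 0.25, 0.17 and 0.30 with MMI, PTU and PER, from -0.08, -0.18 and -0.17, and quantile normalization moved it to 0.03 with each, so the dlx2.L changes relative to all probes moved less than those printed. A larger offset kept these calls and made the changes smaller, at -1.04 for dlx2.L with PTU, -1.28 with PER and 1.90 for lmo3.S with MMI at 96 h. With the replicate block the dlx2.L changes were -1.56 with PTU (adjusted p = 0.0245) and -1.86 with PER (adjusted p = 0.0152), and the lmo3.S change with MMI at 96 h was 3.16 (adjusted p = 0.0384).

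With 1 array left out, the range for dlx2.L was -1.64 to -0.95 with MMI, -1.69 to -1.41 with PTU and -2.06 to -1.81 with PER. For dlx5.L it was -0.79 to 0.10 with MMI and -1.73 to 0.070 with PER, turning sign without control 96 h replicate 2 or MMI 24 h replicate 2, and without PER 24 h replicate 2. For lmo3.S it was 1.01 to 2.02 with MMI and 0.33 to 1.34 with PTU. The call of lmo3.S with MMI at 96 h was kept in 5 of 11 other settings and lost with the values as deposited (2.49), scaling on all probes (3.04), quantile normalization (2.60), the first spot alone (2.55), only MMI and control arrays (3.16, adjusted p = 0.231) and array weights (2.24). With dim probes left out, fewer probes are adjusted over, and dlx2.L with PTU at 48 h (no PTU array above background, adjusted p = 0.0373), lmo3.S with PTU (2.89, adjusted p = 0.0225) and PER (2.82, adjusted p = 0.0256) at 96 h and lmo3.S between 24 and 96 h of the controls (-2.44, adjusted p = 0.0355) passed; the second spot alone also called lmo3.S with PTU at 96 h (3.89, adjusted p = 0.0258).

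Several fitted changes turned sign. dlx2.L did so with PTU at 24 h with scaling on all probes (0.38) and quantile normalization (0.24), with MMI and PTU at 96 h on the first spot alone (0.071 and 0.051), with MMI at 48 h on the second spot alone (0.67), and between 24 and 96 h of PTU as deposited (0.16; range with 1 array left out -0.55 to 0.30). dlx5.L did so with MMI on scaling on all probes (0.093 over the times, 0.0062 at 48 h), with PTU at 96 h with a larger offset (-0.011), the second spot (-0.67) and array weights (-0.46; with 1 array left out -0.56 to 2.11), between 24 and 96 h of PER with 1 array left out (-0.78 to 4.64), and with PER as a difference in background SDs (1.74). lmo3.S did so with PTU at 48 h as deposited (0.14), scaled on all probes (0.41) and by quantile normalization (0.43), with PTU at 24 h (0.96, 0.79 and, on the first spot, 0.51; with 1 array left out -0.80 to 0.38), with PER at 24 h on the second spot (-0.13; with 1 array left out -0.45 to 0.73) and between 24 and 96 h of PER with 1 array left out (-0.16 to 0.35). The largest of these as reported were dlx5.L between 24 and 96 h of PER (1.93) and dlx2.L with PTU at 96 h (-1.30), and none passed the test in either setting. The cause of these moves was not tested.

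Over all probes, the number called was 3 with MMI (0 to 6 in other settings, 0 to 6 with 1 array left out), 19 with PTU (4 to 23, 12 to 29), 7 with PER (0 to 21, 0 to 12) and 21 with MMI at 96 h (1 to 22, 9 to 32). By Pearson correlation over arrays, 0 of the 3 genes most like lmo3.S were shared. Dim signal limits dlx2.L, above background on 11 of 35 arrays.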
